A study of Mus musculus with 6 samples.

Results

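Collagens are secreted or membrane proteins built from chains that wind around each other as a triple helix, and each chain has its own gene. The collagen chain genes were described here in mDE6, a mouse cell line, with and without a short hairpin RNA that targets Arl4c, a GTPase related to the ARF proteins that act in membrane traffic. Members were chosen by gene symbol alone: every protein-coding gene named Col, a number, a and a number. That rule gave 44 genes, of which 39 stood in the expression table among 22032 genes, and 28 had a mean of at least 1 CPM among 14740 such genes. No measured value entered the rule, but the family was singled out with earlier results of these libraries known, so its counts are not independent evidence that collagens in particular responded.

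RNA was sequenced from 3 libraries of mDE6 cells expressing the Arl4c hairpin (shArl4c) and 3 of mDE6 cells expressing a control hairpin (shControl). The labels give no tissue of origin, no age of the cultures and no agent beside the hairpins. They also give 1 hairpin name per group, so what follows from reduced Arl4c and what else that hairpin may do cannot be told apart. Nothing in them ties the libraries of a group to separate cultures, and the p-values below therefore measure the spread among these samples alone, which may be technical. Libraries carry the numbers of the deposited table, shArl4c 2, 3 and 4 and shControl 1, 2 and 3. Values are CPM, read counts per scaled library of fixed size. The libraries held between 12316770 and 14976113 reads, and a single read stood for between 0.0672 and 0.0827 CPM.

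Fibrillar collagens (types I, II, III, V, XI, XXIV and XXVII) form the banded fibrils that give connective tissue its tensile strength. FACIT collagens sit on the surface of those fibrils, type VI collagen forms beaded microfibrils around cells, and network collagens such as type IV build basement membranes and related sheets. A small transmembrane class is anchored in the cell surface, and types VII, XV, XVIII, XXVI and XXVIII were kept as a remaining class. Chains of one trimer are assembled within the same cell, and such partner chains are compared as ratios.

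Less collagen RNA was present in shArl4c than in shControl, and the fall was uneven among the chains. Summed over the 39 listed genes, collagen RNA came to 19990 CPM, 19744 CPM and 20358 CPM in shArl4c 2, 3 and 4, against 37004 CPM, 38626 CPM and 38418 CPM in shControl 1, 2 and 3. Every shArl4c library lay below every shControl library, and the mean sum was 1.90-fold lower. As a share of all reads, collagen chain genes took 1.998% to 2.041% in shArl4c and 3.68% to 3.84% in shControl. In bulk RNA, fewer cells making collagen and less collagen RNA per cell cannot be told apart.

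Of the 28 tested members, 19 were lower and 2 were higher in shArl4c at an adjusted p under 0.05 in limma, and 7 were not called. That is 75.0% of tested members, against 36.9% of all tested genes. In the downward direction it is 67.9% of members against 18.0% of all genes, and 18.9% of all genes were called higher. A fall of at least 2-fold on the log2(CPM + 1) scale was called for 9 members, against 2.53% of all genes. The groups did not overlap for 22 members (78.6%), with 19 lower and 3 higher, against 46.8% of all genes. These counts include Col15a1, which passed the limit of 1 CPM only through shControl and so had to differ. The log2 fold change of CPM + 1, shArl4c over shControl, is written log2FC. Its median was -0.55 over the members and 0.01 over all tested genes. Fold changes on that scale understate the change of genes near 1 CPM.

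**Figure D1:**
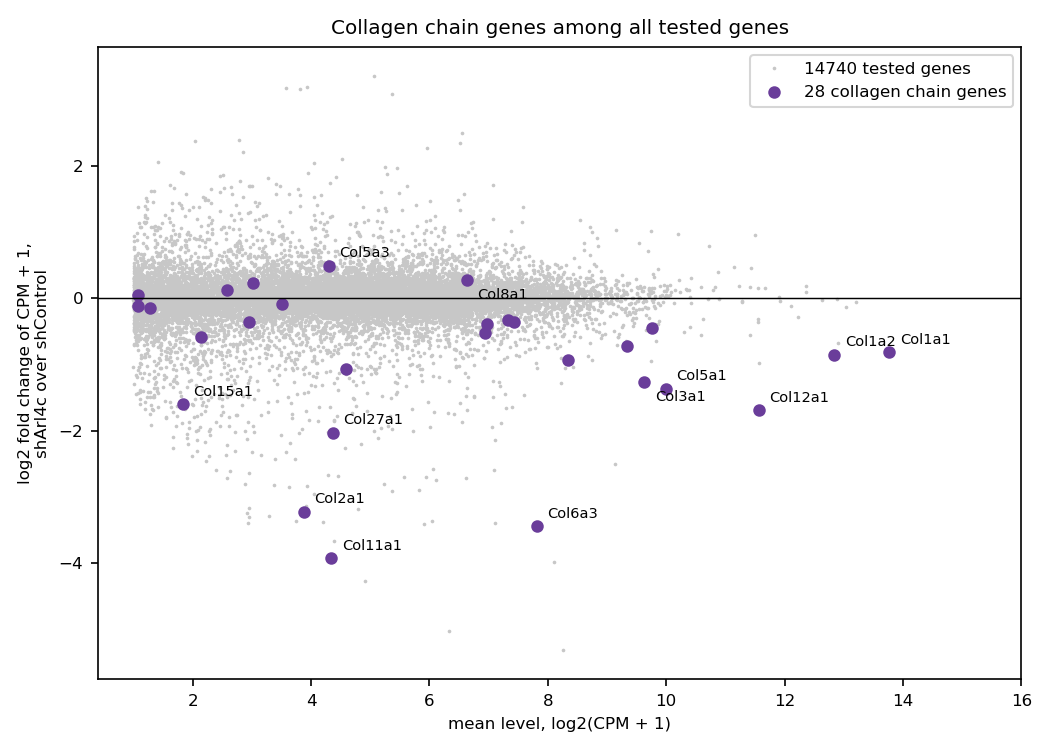
Mean level over the 6 libraries (x axis, log2 of CPM + 1) and log2 fold change of CPM + 1, shArl4c over shControl (y axis), for 14740 tested genes in grey and 28 collagen chain genes in purple. Members range from 1.10 to 13963 CPM on average; Col11a1, Col6a3 and Col2a1 lie lowest, and Col1a1, Col1a2 and Col12a1 at the right all lie below 0.

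The hairpin's target was itself lower. Arl4c had 6.75 CPM, 7.42 CPM and 6.89 CPM in shArl4c 2, 3 and 4, against 20.7 CPM, 21.0 CPM and 20.1 CPM in shControl 1, 2 and 3. The groups were far apart, and the mean was lower by a factor of 2.94 (log2FC -1.43 ± 0.0900 SE, limma adjusted p = 2.08e-10). In a principal component analysis the first component held 73.9% of the variance. Compared pairwise over genes with at least 20 reads, chi-square divided by its degrees of freedom was 1.54 to 5.74 between libraries of one group and 28.1 to 32.7 between groups. The 2 highest values within a group, 5.74 and 4.87, both involved shArl4c 3, and without that library 20 members were called lower and 2 higher.

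The labels give no tissue of origin, and marker genes of cell types were looked at. Of the mesenchymal markers, Vim averaged 2444 CPM in shArl4c and 2543 CPM in shControl, and Prrx1 averaged 585 CPM in shArl4c and 1132 CPM in shControl and was called lower. Pdgfra averaged 234 CPM in shArl4c and 138 CPM in shControl, and Pdgfrb averaged 277 CPM in shArl4c and 247 CPM in shControl, and both were called higher. Twist1 averaged 45.4 CPM in shArl4c and 42.7 CPM in shControl and, like Vim, was not called, while Thy1 and Pdpn lay under 1 CPM and Dpt was not analysed here. Of the epithelial markers, Cdh1 was at 0 in all 3 shArl4c libraries (up to 3 reads, or 0.218 to 0.230 CPM, are compatible with a count of 0) and averaged 0.321 CPM in shControl. Higher means in shArl4c than in shControl were found for Krt19 (0.765 and 0.122 CPM), Krt14 (1.24 and 0.708 CPM) and Krt8 (0.198 and 0.0970 CPM). Lower means were found for Krt5 (0.0997 and 0.166 CPM) and Krt18 (0.0484 and 0.0970 CPM). None of these markers was tested. The 6 listed epithelial markers summed to 1.68 to 3.41 CPM in shArl4c and 1.18 to 1.74 CPM in shControl. Other lists that bear on collagen-making cells are given with the results they touch.

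Promoter sequences of the members that moved most are shown because these genes changed together in the same libraries. The windows printed here are the 250 bases before the RefSeq start (build GRCm38.p6, while the expression values were made on GRCm39), each on the gene's own strand and 5′ to 3′. They belong to the 6 members with a promoter entry, a mean of at least 5 CPM and a called fall of 2-fold or more, and to the 2 members that were higher. Col2a1 and Col12a1 also met those limits of level and fall but had no promoter entry. Capitals mark matches, on either strand, to the CCAAT box (CCAAT), the TATA box (TATAAA), the GC box (GGGCGG), the MCAT box (CATTCC) and the AP-1 site (TGANTCA).
Col6a3 (chr1:90843972-90844221, minus strand): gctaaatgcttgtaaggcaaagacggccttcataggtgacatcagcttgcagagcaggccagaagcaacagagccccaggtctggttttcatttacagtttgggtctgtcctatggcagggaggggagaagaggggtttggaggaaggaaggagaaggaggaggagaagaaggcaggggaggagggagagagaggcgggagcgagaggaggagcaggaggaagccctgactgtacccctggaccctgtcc
Col11a1 (chr3:114030290-114030539, plus strand): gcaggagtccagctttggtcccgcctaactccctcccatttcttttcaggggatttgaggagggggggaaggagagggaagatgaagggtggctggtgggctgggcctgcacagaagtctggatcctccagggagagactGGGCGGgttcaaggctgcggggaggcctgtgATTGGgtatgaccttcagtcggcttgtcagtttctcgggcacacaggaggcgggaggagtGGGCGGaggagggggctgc
Col27a1 (chr4:63215162-63215411, plus strand): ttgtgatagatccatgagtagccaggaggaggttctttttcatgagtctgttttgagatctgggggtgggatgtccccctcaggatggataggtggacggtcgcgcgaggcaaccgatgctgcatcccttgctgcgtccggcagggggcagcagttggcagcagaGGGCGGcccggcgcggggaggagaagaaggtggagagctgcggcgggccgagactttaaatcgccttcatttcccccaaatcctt
Col5a1 (chr2:27886175-27886424, plus strand): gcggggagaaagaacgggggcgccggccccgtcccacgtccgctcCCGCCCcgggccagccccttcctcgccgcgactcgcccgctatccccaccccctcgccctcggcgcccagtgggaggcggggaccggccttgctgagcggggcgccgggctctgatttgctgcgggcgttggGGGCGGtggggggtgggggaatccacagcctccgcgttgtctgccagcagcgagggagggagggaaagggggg
Col3a1 (chr1:45311288-45311537, plus strand): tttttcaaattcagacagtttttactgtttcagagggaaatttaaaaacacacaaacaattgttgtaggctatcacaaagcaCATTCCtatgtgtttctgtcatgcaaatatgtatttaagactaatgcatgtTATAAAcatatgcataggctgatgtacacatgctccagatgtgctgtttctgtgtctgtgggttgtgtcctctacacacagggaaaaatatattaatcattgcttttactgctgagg
Col8a2 (chr4:126286544-126286793, plus strand): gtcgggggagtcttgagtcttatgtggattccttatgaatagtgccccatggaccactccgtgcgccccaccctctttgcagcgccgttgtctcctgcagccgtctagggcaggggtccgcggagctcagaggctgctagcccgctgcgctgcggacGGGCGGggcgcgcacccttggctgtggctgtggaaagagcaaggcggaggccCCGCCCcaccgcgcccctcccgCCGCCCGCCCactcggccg
Col5a3 (chr9:20815068-20815317, minus strand): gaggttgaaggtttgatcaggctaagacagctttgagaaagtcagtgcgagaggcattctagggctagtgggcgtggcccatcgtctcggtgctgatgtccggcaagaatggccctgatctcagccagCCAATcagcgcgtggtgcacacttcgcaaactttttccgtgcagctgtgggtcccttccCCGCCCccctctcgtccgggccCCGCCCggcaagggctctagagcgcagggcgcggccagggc
Col8a1 (chr16:57754738-57754987, minus strand): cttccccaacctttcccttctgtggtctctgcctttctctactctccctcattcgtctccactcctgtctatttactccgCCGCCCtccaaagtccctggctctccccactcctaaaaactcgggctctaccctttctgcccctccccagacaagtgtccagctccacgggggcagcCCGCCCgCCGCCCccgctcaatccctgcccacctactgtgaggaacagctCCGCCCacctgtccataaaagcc

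Promoter entries were found for 35 of the 44 members and for 24 of the 28 tested ones. Those 24 members have 26 windows, since Col6a2 and Col18a1 have 2 entries each. The GC box GGGCGG lay in 17 of the 26 windows, against 32.7% of 32851 promoter windows of all genes. CCAAT lay in 10 of 26 windows, against 33.8% of all windows. TATAAA lay in 3 of 26 against 12.4%, CATTCC in 4 of 26 against 12.6%, and TGANTCA in 1 of 26, that of Col6a1, against 6.75%. The members' windows were rich in G and C, at 59.9% on average against 53.2% over all promoters, and the GC box consists of those letters. Of the 7 windows of genes with a called fall of 2-fold or more, 4 held a GC box and 1, that of Col11a1, held CCAAT. The window of Col15a1 is among these but is not printed. For Col15a1, as for Col11a2, the bases after the start did not match the beginning of an annotated transcript of the gene. Col3a1 had the most A and T of the windows printed, with 35.2% G and C, and held both a TATAAA match starting 117 bases before the start and a CATTCC match starting 168 bases before it. Col6a3, which fell among the most, held none of these motifs, and Col5a3 and Col8a1, which were higher, held a GC box as Col5a1 and Col8a2 did. None of the 5 motifs was present in all printed windows of genes that fell. A match is a run of letters and not a measured binding site.

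Fibrillar chains were the class with the most tested genes and the most calls. Of 10 tested, 8 were lower, 1 was higher and 1 was not called (80.0% lower, against 18.0% of all tested genes). Fibrillar chains had a median log2FC of -1.06. Their sum was 17199 CPM, 16855 CPM and 17505 CPM in shArl4c 2, 3 and 4, against 30074 CPM, 31545 CPM and 31183 CPM in shControl 1, 2 and 3. The groups did not overlap, and the ratio of the means was 0.556.

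Type I collagen, the main fibrillar collagen of bone, dentin, skin and tendon, made up most of this sum. Col1a1, its major chain, had 10085 CPM, 9965 CPM and 10368 CPM in shArl4c 2, 3 and 4, against 17263 CPM, 18207 CPM and 17892 CPM in shControl 1, 2 and 3. Every shArl4c value was below every shControl value, with a mean 1.75-fold lower (log2FC -0.81 ± 0.0389 SE, limma adjusted p = 4.01e-12). After quantile normalization, which gives genes of equal rank in each library one value, the log2FC of Col1a1 was -0.18 and was no longer called (limma adjusted p = 0.510). Col1a2, the partner chain, had 5279 CPM, 5127 CPM and 5314 CPM in shArl4c 2, 3 and 4, against 9182 CPM, 9592 CPM and 9555 CPM in shControl 1, 2 and 3. It was 1.80-fold lower with no overlap (log2FC -0.85 ± 0.0384 SE, limma adjusted p = 1.72e-12). Col1a1 and Col1a2 thus fell by nearly the same factor.

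Types III and V collagen accompany type I collagen in the same fibrils. Col3a1, the chain of type III collagen of skin, vessels and hollow organs, had 473 CPM, 448 CPM and 475 CPM in shArl4c 2, 3 and 4, against 1102 CPM, 1112 CPM and 1139 CPM in shControl 1, 2 and 3. It was 2.40-fold lower, with a narrow spread in both groups (log2FC -1.26 ± 0.0397 SE, limma adjusted p = 8.02e-15). Type V collagen starts fibrils and limits their diameter. Its chain Col5a1 had 568 CPM, 572 CPM and 567 CPM in shArl4c 2, 3 and 4, against 1428 CPM, 1484 CPM and 1482 CPM in shControl 1, 2 and 3. It was 2.57-fold lower (log2FC -1.36 ± 0.0378 SE, limma adjusted p = 1.23e-15). Col5a2, which joins Col5a1 in the common type V trimer, had 755 CPM, 706 CPM and 743 CPM in shArl4c 2, 3 and 4, against 983 CPM, 1030.4 CPM and 997 CPM in shControl 1, 2 and 3. Those groups lay closer together, at 1.37-fold lower, though without overlap (log2FC -0.45 ± 0.0404 SE, limma adjusted p = 3.56e-08). Col5a3, a type V chain of more restricted use, had 22.1 CPM, 22.0 CPM and 22.1 CPM in shArl4c 2, 3 and 4, against 16.5 CPM, 15.4 CPM and 14.3 CPM in shControl 1, 2 and 3. It was the 1 fibrillar chain called higher, by 1.43-fold (log2FC 0.49 ± 0.0782 SE, limma adjusted p = 4.83e-05).

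Col11a1, Col2a1 and Col27a1, which are known mainly from cartilage, had the largest falls among the fibrillar chains, while the cartilage chain Col11a2 was not called. Col11a1, which starts and sizes fibrils in cartilage and also occurs with type V chains elsewhere, had 1.60 CPM, 0.974 CPM and 2.07 CPM in shArl4c 2, 3 and 4, against 38.5 CPM, 35.4 CPM and 37.3 CPM in shControl 1, 2 and 3. The shArl4c libraries together held 62 reads of it, against 1499 in shControl. The mean was 24.0-fold lower, and on the log2 scale this was the 5th largest fall among all tested genes (log2FC -3.92 ± 0.136 SE, limma adjusted p = 2.42e-13). Col2a1, the main fibrillar chain of cartilage, had 1.60 CPM, 1.57 CPM and 2.45 CPM in shArl4c 2, 3 and 4, against 24.5 CPM, 26.7 CPM and 25.6 CPM in shControl 1, 2 and 3. It was 13.7-fold lower (log2FC -3.22 ± 0.126 SE, limma adjusted p = 1.84e-13). Col27a1, a fibrillar chain of growth cartilage, had 6.68 CPM, 7.20 CPM and 7.50 CPM in shArl4c 2, 3 and 4, against 30.0 CPM, 34.97 CPM and 31.7 CPM in shControl 1, 2 and 3. It was 4.52-fold lower (log2FC -2.03 ± 0.0870 SE, limma adjusted p = 7.65e-13). In all 3 genes the groups were separated by a wide gap. Col11a2, a partner of Col11a1, had 6.90 CPM, 5.92 CPM and 4.52 CPM in shArl4c 2, 3 and 4, against 6.72 CPM, 7.67 CPM and 8.52 CPM in shControl 1, 2 and 3. Its groups overlapped and it was not called (log2FC -0.36 ± 0.139 SE, limma adjusted p = 0.0506).

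Of the other cartilage genes on the marker list, 1 was high enough to be tested. Sox9, the transcription factor of chondrocytes, averaged 13.9 CPM in shArl4c and 14.9 CPM in shControl and was not called (limma adjusted p = 0.457). Matn3 and Cnmd lay under 1 CPM, and Acan and Hapln1 were not analysed here. The 3 listed chondrocyte markers summed to 13.9 to 15.2 CPM in shArl4c and 14.7 to 16.5 CPM in shControl.

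**Figure D2:**
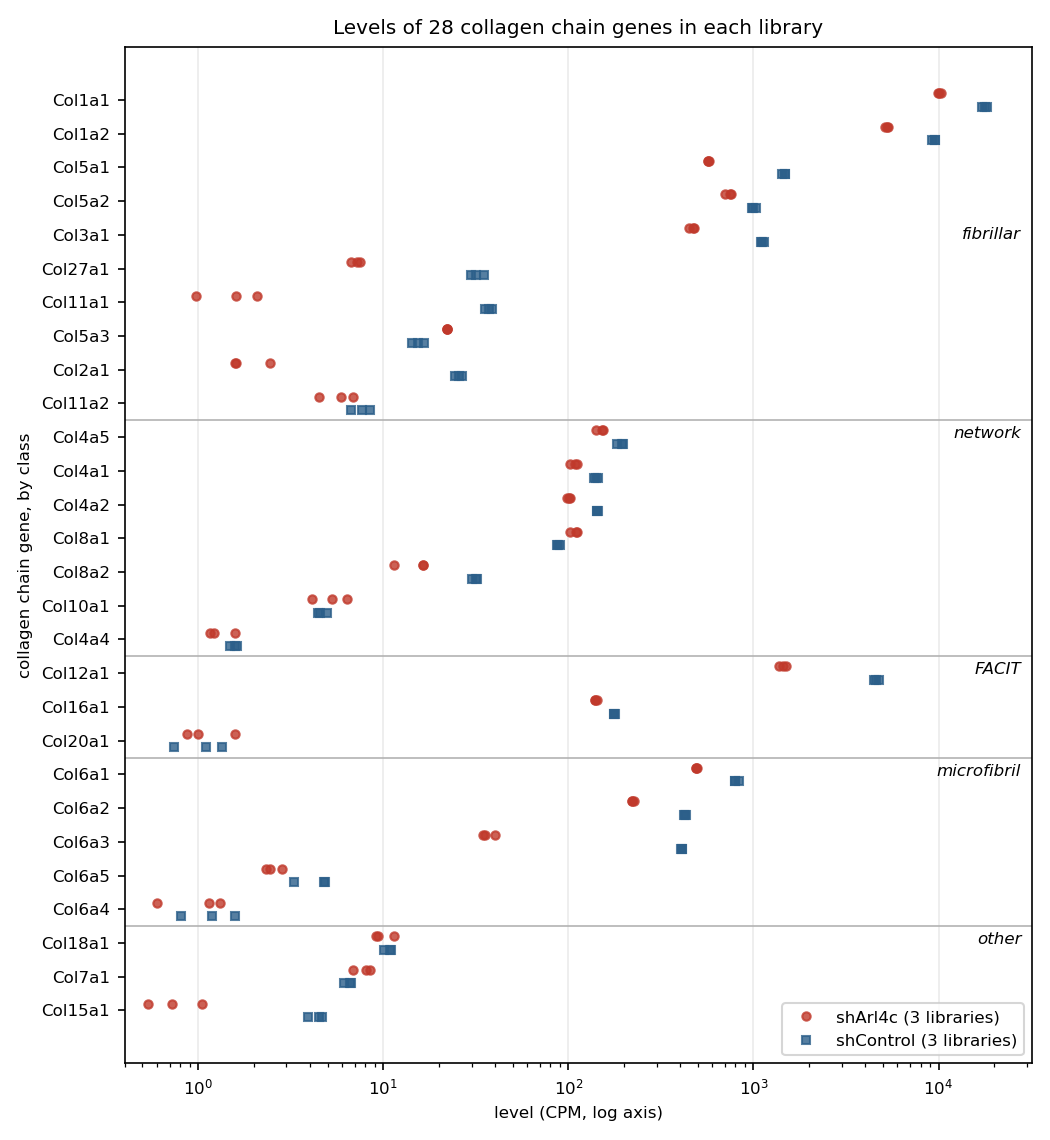
CPM (log axis) of the 28 tested collagen chain genes in each library, shArl4c as red circles and shControl as blue squares, grouped by class. The groups are separated for 22 genes, and the widest gaps are those of Col11a1, Col2a1 and Col6a3.

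FACIT chains are represented in this line by Col12a1 and Col16a1. Of 9 members of the class, 5 were listed and 3 tested. Of these 3, 2 were lower and 1 was not called (66.7% lower, against 18.0% of all tested genes). Col12a1, the chain of type XII collagen, which binds to the surface of type I fibrils, had 1373 CPM, 1505 CPM and 1438 CPM in shArl4c 2, 3 and 4, against 4504 CPM, 4622 CPM and 4746 CPM in shControl 1, 2 and 3. It was 3.21-fold lower, with no overlap (log2FC -1.68 ± 0.0420 SE, limma adjusted p = 2.52e-16). Col16a1, a FACIT chain near the cell surface, averaged 140.7 CPM in shArl4c and 177 CPM in shControl, a 1.26-fold lower level (log2FC -0.33 ± 0.0399 SE, limma adjusted p = 1.69e-06). Col20a1 averaged 1.15 CPM in shArl4c and 1.07 CPM in shControl and was not called. It shares exon bases with a gene on the same strand, BX649560.1, which averaged 7.30 CPM, so its reads are uncertain. The class sum was 1515 CPM, 1648 CPM and 1582 CPM in shArl4c 2, 3 and 4, against 4683 CPM, 4804 CPM and 4925 CPM in shControl 1, 2 and 3. The ratio of 0.329 was the lowest of the 6 classes, and Col12a1 made up most of the sum.

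The chains of type VI collagen fell to very different extents. Its main trimer joins the products of Col6a1, Col6a2 and Col6a3, and Col6a4, Col6a5 and Col6a6 encode chains that can take the place of the Col6a3 product. Col6a3 had 35.6 CPM, 40.2 CPM and 34.7 CPM in shArl4c 2, 3 and 4, against 408 CPM, 412 CPM and 412 CPM in shControl 1, 2 and 3. It was 11.1-fold lower and the 8th largest fall among all tested genes (log2FC -3.45 ± 0.0506 SE, limma adjusted p = 1.26e-19). Its partners fell far less. Col6a1 had 498 CPM, 487 CPM and 491 CPM in shArl4c 2, 3 and 4, against 798 CPM, 792 CPM and 832 CPM in shControl 1, 2 and 3, a 1.64-fold lower level (log2FC -0.71 ± 0.0387 SE, limma adjusted p = 2.52e-11). Col6a2 had 221 CPM, 226 CPM and 222 CPM in shArl4c 2, 3 and 4, against 423 CPM, 431 CPM and 429 CPM in shControl 1, 2 and 3, a 1.92-fold lower level (log2FC -0.94 ± 0.0383 SE, limma adjusted p = 3.78e-13). None of these 3 genes overlapped between groups.

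The chains that can replace the Col6a3 product stayed low in both groups. Col6a5 averaged 2.54 CPM in shArl4c and 4.32 CPM in shControl and was called lower (log2FC -0.58 ± 0.156 SE, limma adjusted p = 0.00673). That call was lost without shControl 2 (log2FC -0.50, limma adjusted p = 0.0508). Col6a4 averaged 1.02 CPM in shArl4c and 1.19 CPM in shControl and was not called, and Col6a6 lay under 1 CPM in every library. The class sum was 759 CPM, 757 CPM and 751 CPM in shArl4c 2, 3 and 4, against 1635 CPM, 1641 CPM and 1678 CPM in shControl 1, 2 and 3, a ratio of 0.458. Of 5 tested microfibril chains, 4 were lower and 1 was not called. That is 80.0% lower, the same share as in the fibrillar class, against 18.0% of all tested genes.

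Network chains fell less than the fibrillar, FACIT and microfibril chains by the ratio of their sums. Of 7 tested, 4 were lower, 1 was higher and 2 were not called (57.1% lower, against 18.0% of all tested genes). The median log2FC was -0.36. Type IV collagen is the scaffold of basement membranes. Col4a1 averaged 107 ± 4.94 CPM in shArl4c and 141 ± 3.62 CPM in shControl (SD, n = 3 each), 1.31-fold lower (limma adjusted p = 1.14e-06). Col4a2, its partner in the widespread trimer, averaged 99.99 ± 1.87 CPM in shArl4c and 144 ± 1.16 CPM in shControl, 1.44-fold lower (limma adjusted p = 6.56e-09). Col4a5, which joins trimers of specialised basement membranes, averaged 149 ± 6.90 CPM in shArl4c and 192 ± 7.27 CPM in shControl, 1.29-fold lower (limma adjusted p = 3.32e-06). Its usual partners were scarce: Col4a4 averaged 1.32 CPM in shArl4c and 1.55 CPM in shControl and was not called, and Col4a3 and Col4a6 lay under 1 CPM.

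Type VIII collagen forms hexagonal sheets, as in the membrane under the corneal endothelium, and its chains moved apart. Col8a1 had 111 CPM, 102 CPM and 109.8 CPM in shArl4c 2, 3 and 4, against 87.0 CPM, 90.5 CPM and 87.5 CPM in shControl 1, 2 and 3. It was higher by 1.22-fold, with all shArl4c libraries above all shControl libraries (log2FC 0.28 ± 0.0470 SE, limma adjusted p = 8.37e-05). Col8a2 had 16.3 CPM, 11.4 CPM and 16.3 CPM in shArl4c 2, 3 and 4, against 30.3 CPM, 31.5 CPM and 32.1 CPM in shControl 1, 2 and 3. It was 2.13-fold lower, and shArl4c 3 was the lowest library (log2FC -1.06 ± 0.116 SE, limma adjusted p = 1.73e-05; -0.90 without shArl4c 3). Col10a1, a network chain of hypertrophic cartilage, averaged 5.26 ± 1.12 CPM in shArl4c and 4.66 ± 0.277 CPM in shControl and was not called. The network sum was 495 CPM, 462 CPM and 499.6 CPM in shArl4c 2, 3 and 4, against 588 CPM, 614 CPM and 608 CPM in shControl 1, 2 and 3, a ratio of 0.805.

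The multiplexins and type VII collagen had low levels. Col15a1, a multiplexin of basement membrane zones, had 0.726 CPM, 1.05 CPM and 0.536 CPM in shArl4c 2, 3 and 4, against 4.65 CPM, 3.90 CPM and 4.47 CPM in shControl 1, 2 and 3. It was lower without overlap, from 31 reads in shArl4c and 175 in shControl (log2FC -1.60 ± 0.164 SE, limma adjusted p = 2.13e-07). Col15a1 passed the limit of 1 CPM only through shControl and so had to differ. Its p is therefore no evidence of a change. Col18a1, the related multiplexin whose end gives endostatin, averaged 10.01 ± 1.27 CPM in shArl4c and 10.7 ± 0.483 CPM in shControl and was not called. Col7a1, the chain of anchoring fibrils, averaged 7.83 ± 0.824 CPM in shArl4c and 6.47 ± 0.305 CPM in shControl; its groups did not overlap but it was not called (limma adjusted p = 0.128). The 3 listed transmembrane chains, Col17a1, Col23a1 and Col25a1, summed to 1.20 to 1.60 CPM in shArl4c and 1.16 to 1.62 CPM in shControl, and none was tested.

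In all, 11 listed members lay under a mean of 1 CPM and were left out of the test: Col4a3, Col4a6, Col6a6, Col9a3, Col14a1, Col17a1, Col23a1, Col24a1, Col25a1, Col26a1 and Col28a1. Their means ran from 0.0987 to 0.968 CPM, with 8 to 78 reads over the 6 libraries, and the groups overlapped for all 11. Just inside that limit stood Col6a4 with a mean of 1.10 CPM, and just outside it Col9a3 with 0.968 CPM. Col9a1, Col9a2, Col13a1, Col19a1 and Col22a1 were not analysed here. A member that passed the limit only through its level in 1 group, as Col15a1 did through shControl, had to differ, so the counts above describe the tested members and not the whole family.

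**Figure D3:**
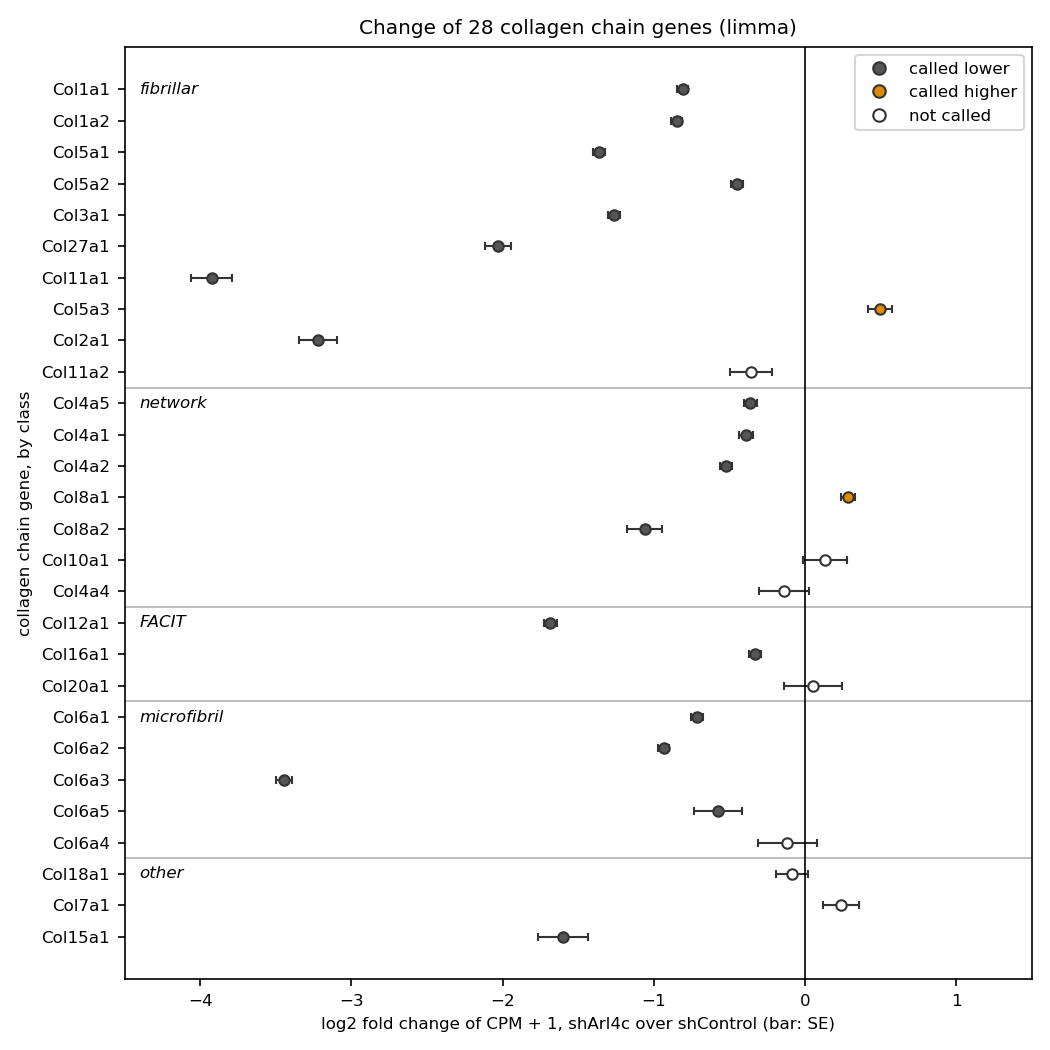
Log2 fold change of CPM + 1, shArl4c over shControl, of the 28 tested collagen chain genes (x axis, bars are SE from limma), grouped by class. Filled grey points are the 19 called lower, orange the 2 called higher (Col5a3 and Col8a1), and open points the 7 not called.

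Most of the loss of collagen RNA lay in the genes that made up most of that RNA. The sum over the family was lower by 17985 CPM on average (shArl4c minus shControl, -17985 CPM). Col1a1 accounted for 42.5% of that difference, Col1a2 for 23.4% and Col12a1 for 17.7%, together 83.6%. In shControl these genes held 46.8%, 24.8% and 12.2% of collagen CPM. In shArl4c they held 50.6%, 26.2% and 7.18%. Col1a1 and Col1a2 thus took a smaller share of the loss than of shControl collagen RNA, and Col12a1 a larger one. Col6a3, despite its 11.1-fold fall, accounted for 2.08%, and Col11a1 for 0.198%. The make-up of collagen RNA shifted between classes. Fibrillar chains were 85.8% ± 0.371 of collagen CPM in shArl4c and 81.4% ± 0.263 in shControl (SD, n = 3 each). FACIT chains were 7.90% ± 0.401 in shArl4c and 12.6% ± 0.192 in shControl. Microfibril chains were 3.77% ± 0.0734 in shArl4c and 4.34% ± 0.0872 in shControl. Network chains were 2.42% ± 0.0724 in shArl4c and 1.59% ± 0.00297 in shControl.

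**Figure D4:**
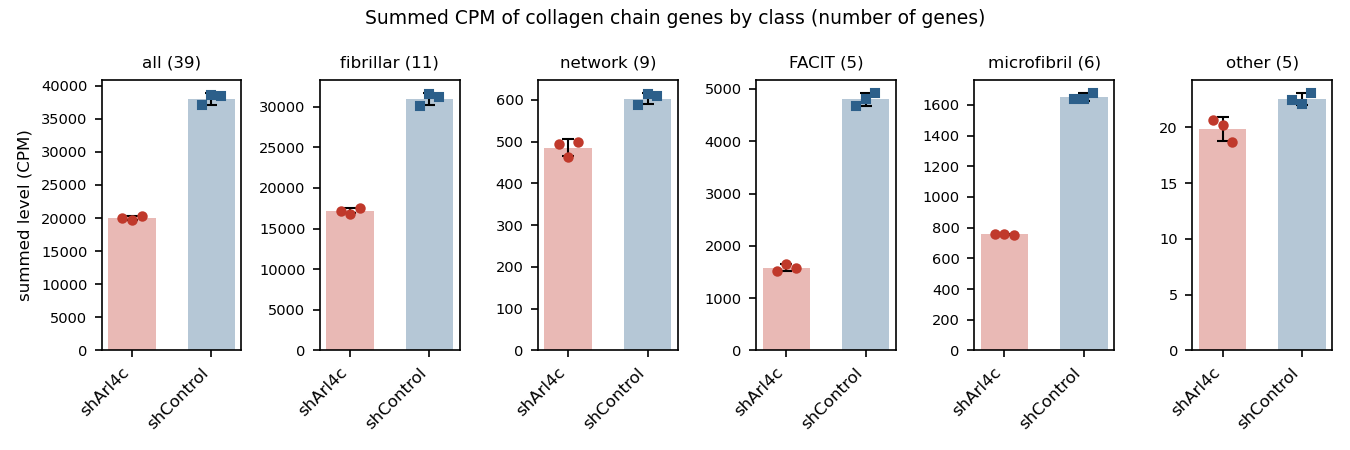
Summed CPM of collagen chain genes by class in each library, with the group mean as a bar and the SD over 3 libraries as an error line; each panel has its own axis starting at 0 and gives the number of listed genes. The ratio of means runs from 0.329 for FACIT chains to 0.881 for the remaining class, and the transmembrane class, under 2 CPM in sum, is not drawn.

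To compare levels between genes, CPM was divided by the length of the longest annotated transcript. On that scale Col1a1 led with 1709.8 ± 34.8 CPM per kb in shArl4c and 2999.6 ± 81.0 CPM per kb in shControl (SD, n = 3 each). Col1a2 followed with 979.8 ± 18.6 CPM per kb in shArl4c and 1766 ± 42.4 CPM per kb in shControl. The other chains were severalfold lower. Col12a1 had 125 ± 5.76 CPM per kb in shArl4c and 402 ± 10.5 CPM per kb in shControl, which placed it 3rd in both groups. In shArl4c it stood level with Col6a1 at 119.99 ± 1.44 CPM per kb, within 1 SD, and little above Col5a2 at 110.9 ± 3.89 CPM per kb. In shControl it stood well clear of Col3a1 at 201 ± 3.47 CPM per kb and Col6a1 at 197 ± 5.19 CPM per kb, which differed from each other by less than the SD of Col6a1. Col5a1 had 67.7 ± 0.317 CPM per kb in shArl4c and 174 ± 3.79 CPM per kb in shControl. Col6a3 had 3.65 ± 0.294 CPM per kb in shArl4c and 40.6 ± 0.238 CPM per kb in shControl, so in shArl4c it stood below Col4a5 at 22.9 ± 1.06 CPM per kb, while in shControl it stood above Col4a5 at 29.4 ± 1.11 CPM per kb. Over the length of all annotated exons instead, Col1a1 and Col1a2 still led, with 1545 and 422 CPM per kb in shArl4c and 2710.2 and 759.9 CPM per kb in shControl. The order of the genes behind them depends on which length is used.

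Partner chains of one trimer were compared as ratios within each library, which library scaling cannot move. Of the pairs considered, 8 had both chains at a mean of at least 1 CPM. The groups did not overlap in any of the 8, and each exact permutation test over 3 against 3 libraries gave a two-sided p = 0.1 (0.1 after adjustment over the 8 pairs), the smallest that this design allows. Among single tested genes the groups did not overlap for 46.8%, and no such share was worked out for ratios of other genes. Col5a1 and Col6a1 recur among the pairs, so the 8 are not independent. The size of the shift differed widely.

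The ratio of Col1a1 to Col1a2 hardly moved, at 1.93 in shArl4c and 1.88 in shControl (geometric means), a log2 difference of 0.04. Its closest libraries, shArl4c 2 at 1.910 and shControl 2 at 1.898, were barely apart. Col4a1 over Col4a2 was 1.07 in shArl4c and 0.978 in shControl, a log2 difference of 0.13. Col6a1 over Col6a2 was 2.21 in shArl4c and 1.89 in shControl, a log2 difference of 0.22. These shifts were small beside those of the other pairs.

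Other pairs moved severalfold. Col6a3 over Col6a1 was 0.0714, 0.0827 and 0.0708 in shArl4c 2, 3 and 4, against 0.511, 0.520 and 0.495 in shControl 1, 2 and 3, a log2 difference of -2.77. Col11a1 over Col11a2 was 0.232, 0.165 and 0.458 in shArl4c 2, 3 and 4, against 5.74, 4.61 and 4.38 in shControl 1, 2 and 3, a log2 difference of -4.23. Col11a1 thus had fewer reads than Col11a2 in every shArl4c library and more in every shControl library. Among the type V chains, Col5a1 over Col5a2 was 0.752, 0.810 and 0.763 in shArl4c 2, 3 and 4, against 1.45, 1.44 and 1.49 in shControl 1, 2 and 3, a log2 difference of -0.91. Col5a3 over Col5a1 was 0.0388 in shArl4c and 0.0105 in shControl, a log2 difference of 1.88. Col8a1 over Col8a2 was 6.81, 8.95 and 6.74 in shArl4c 2, 3 and 4, against 2.87, 2.87 and 2.72 in shControl 1, 2 and 3, a log2 difference of 1.40. In both type V and type VIII collagen, then, 1 chain was higher while another was lower.

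**Figure D5:**
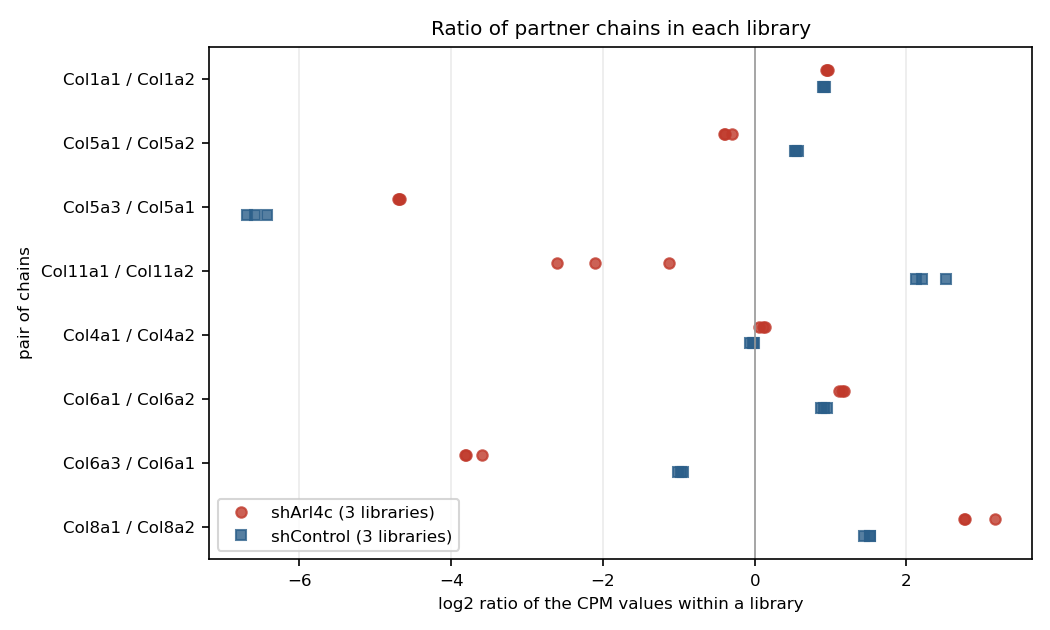
Log2 ratio of the CPM of partner chains within each library (x axis), shArl4c as red circles above shControl as blue squares, for 8 pairs of chains (y axis). The groups are separated in all 8 pairs. Their means differ (shArl4c minus shControl) by 0.04 for Col1a1 over Col1a2 and by -4.23 for Col11a1 over Col11a2.

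Several members lie next to each other in the genome. Col4a1 and Col4a2 stand head to head and share a promoter region. Their log2FC values were -0.39 and -0.52. Col6a2 and Col6a1, which follow each other on one strand, had -0.94 and -0.71. Col3a1 and Col5a2, which point at each other tail to tail, had -1.26 and -0.45. Col6a3, which lies apart from Col6a1 and Col6a2, had -3.45. Exons of Col10a1, with a mean of 4.96 CPM, share 18 bases with Nt5dc1, a gene on the opposite strand that averaged 16.3 CPM. Exons of Col4a1 and Col4a2 share 22 bases on opposite strands. Those of Col5a1 overlap 2 antisense transcripts, 2810430I11Rik and Gm13372, which averaged 3.04 CPM and 2.08 CPM. The use of strand in counting is not given in these sources, so reads in such overlaps cannot be assigned with certainty; against the mean of 1017 CPM for Col5a1 they are few.

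Genes whose products modify, fold and export procollagen were lower more often than higher. Of 23 tested, 13 were lower, 1 was higher and 9 were not called, with a median log2FC of -0.24. That is 56.5% lower, against 18.0% of all tested genes. Their sum ran from 3756 to 4107 CPM in shArl4c and from 4813 to 4994 CPM in shControl. Creb3l1, a transcription factor that drives Col1a1 in mouse osteoblasts, averaged 74.2 ± 4.56 CPM in shArl4c and 120.3 ± 0.922 CPM in shControl (log2FC -0.69 ± 0.0491 SE, limma adjusted p = 1.25e-09). P3h1, a prolyl 3-hydroxylase of type I chains, averaged 59.7 ± 2.74 CPM in shArl4c and 98.9 ± 5.02 CPM in shControl (log2FC -0.72 ± 0.0522 SE, limma adjusted p = 1.72e-09). Both were chosen as the called genes of the list with the smallest p, as were the pairs named below.

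Genes that trim and cross-link collagen did not share one direction. Of 12 tested, 4 were lower, 3 higher and 5 not called (33.3% lower, against 18.0% of all tested genes), with a median log2FC of -0.07, and their sum ran from 4876 to 5163 CPM in shArl4c and from 4545 to 4745 CPM in shControl. Adamts14, which removes the amino-terminal propeptide of procollagen, averaged 36.3 ± 0.543 CPM in shArl4c and 20.8 ± 1.57 CPM in shControl (log2FC 0.78 ± 0.0690 SE, limma adjusted p = 3.06e-08). Loxl4, a lysyl oxidase that cross-links chains, averaged 109 ± 5.98 CPM in shArl4c and 74.8 ± 2.51 CPM in shControl (log2FC 0.53 ± 0.0497 SE, limma adjusted p = 5.60e-08). Both genes with the smallest p were thus higher in shArl4c while the type I chains were lower. Without shArl4c 3, 5 genes of this list were called higher. Of the 4 lower genes, Pcolce2 (0.623 CPM in shArl4c and 4.01 CPM in shControl) and Tll1 (0.15 CPM in shArl4c and 2.41 CPM in shControl) passed the limit of 1 CPM through shControl and so had to differ.

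Cell-surface receptors for collagen were mixed. Of 9 tested, 5 were lower, 2 higher and 2 not called (55.6% lower, against 18.0% of all tested genes). The median log2FC was -0.15. Without shArl4c 4, shControl 1 or shControl 2, 1 gene was called higher. Itga11, the alpha subunit of a fibroblast integrin that binds type I collagen, averaged 30.7 ± 1.97 CPM in shArl4c and 103 ± 2.97 CPM in shControl (log2FC -1.71 ± 0.0561 SE, limma adjusted p = 1.38e-14). Adgrg6, an adhesion receptor that binds type IV collagen, averaged 22.2 ± 0.669 CPM in shArl4c and 62.2 ± 3.66 CPM in shControl (log2FC -1.44 ± 0.0619 SE, limma adjusted p = 7.65e-13). The list summed to 1596 to 1635 CPM in shArl4c and 1916 to 1977 CPM in shControl.

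Genes for proteins that bind collagen fibrils were mostly lower. Of 15 tested, 10 were lower, 3 higher and 2 not called, with a median log2FC of -0.56. That is 66.7% lower, against 18.0% of all tested genes, and 86.7% called, against 36.9%. Postn, which encodes periostin, a matrix protein that binds type I collagen, averaged 31.8 ± 1.61 CPM in shArl4c and 517 ± 13.1 CPM in shControl (log2FC -3.98 ± 0.0457 SE, limma adjusted p = 1.77e-21). Aspn, which encodes the small proteoglycan asporin, averaged 15.4 ± 1.10 CPM in shArl4c and 105 ± 1.12 CPM in shControl (log2FC -2.70 ± 0.0610 SE, limma adjusted p = 6.39e-17). The list summed to 11921 to 12110.1 CPM in shArl4c and 18815 to 19517 CPM in shControl.

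Proteases that cleave collagen were mixed in direction. Of 6 tested, 3 were lower, 2 higher and 1 not called, with a median log2FC of -0.20. For comparison, 18.0% of all tested genes were called lower and 18.9% higher. The list summed to 454 to 492 CPM in shArl4c and 627 to 643 CPM in shControl. Of the 2 higher genes, Mmp8 (2.47 CPM in shArl4c and 0.24 CPM in shControl) passed the limit of 1 CPM through shArl4c and so had to differ. Mmp16, a membrane-bound metalloproteinase, averaged 4.89 ± 0.770 CPM in shArl4c and 22.1 ± 0.521 CPM in shControl (log2FC -1.98 ± 0.107 SE, limma adjusted p = 2.42e-11). Mmp14, the membrane-bound collagenase of fibroblasts, averaged 114 ± 5.13 CPM in shArl4c and 178 ± 6.21 CPM in shControl (log2FC -0.64 ± 0.0456 SE, limma adjusted p = 1.42e-09).

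Marker lists of cells that make much collagen did not share one direction, and the smooth muscle list was lower as a whole. All 4 tested smooth muscle and myofibroblast markers of 5 listed (Acta2, Actg2, Cnn1 and Tagln) were lower, with a summed level of 206 to 238 CPM in shArl4c and 1340 to 1379 CPM in shControl, while Myh11, which defines mature smooth muscle, averaged 0.15 CPM in shArl4c and 0.226 CPM in shControl. Of 5 tested osteoblast markers, 3 were lower, 1 was higher and 1 was not called. Those lower included Sp7 (1.37 CPM in shArl4c and 23.4 CPM in shControl) and Alpl (20.5 CPM in shArl4c and 45.1 CPM in shControl). The higher one was Spp1, at 766 CPM in shArl4c and 372 CPM in shControl. The osteoblast list summed to 875 to 929 CPM in shArl4c and 576 to 598 CPM in shControl. Spp1 made up most of that sum in both groups, so the sum does not stand for the other markers. Bglap and Bglap2, which define mature osteoblasts, were not analysed here. Of 5 tested mesenchymal markers, 1 was lower, 2 were higher and 2 were not called, with sums of 3407 to 3693 CPM in shArl4c and 4044 to 4168 CPM in shControl. For comparison with these list counts, 18.0% of all tested genes were called lower and 18.9% higher. The part of the marker genes in the collagen results was not tested.

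Marker lists of further cell types are given by their sums and calls. Leukocyte markers summed to 6.75 to 8.02 CPM in shArl4c and 4.799 to 5.31 CPM in shControl. Of 2 tested leukocyte genes, 1 was higher, against 18.9% of all tested genes. Endothelial markers summed to 1.07 to 1.74 CPM in shArl4c and 1.48 to 2.07 CPM in shControl, and the 1 tested gene was not called. Of the odontoblast list, Nes was tested and higher, at 161 CPM in shArl4c and 89.3 CPM in shControl, and Dspp was not analysed here.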

How the data were processed

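The authors deposited one table of CPM per gene for the 6 libraries. Trimmomatic 0.38, RSEM 1.3.0, Bowtie2, edgeR and the build GRCm39 are named, per the submitters' processing notes, without order or settings. Libraries were made with a directional kit, per the labels' protocols, and the use of strand in counting is not stated. Every deposited value was a whole multiple of its column's smallest step (100% of values, within 0.001 of a read), so CPM could be turned back into read counts. Columns named shluc were taken as shControl and columns naming the Arl4c hairpin as shArl4c, so that a column has a group but no labelled replicate.

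Symbols, gene types and transcript lengths came from an annotation of an older build, and 21880 of 22032 gene IDs matched a symbol. Genes averaging 1 CPM or more were fitted on log2(CPM + 1) with limma 3.58.1 in R 4.3.3 (intensity trend, robust moderation, no covariate), with p adjusted by Benjamini-Hochberg over all 14740 tested genes. A gene was called at an adjusted p under 0.05. On the recovered reads, edgeR 4.0.16 (quasi-likelihood) called 5303 genes and DESeq2 1.42.0 called 4108, against 5445 in limma. The design allowed for raw counts, and its CPM form was used. The fitting steps were tested on simulated data. A count of 0 allows up to 3 reads, and such floors cover counting error only.

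Per-library values are given for members with a mean of at least 5 CPM and a called log2 fold change of at least 1 in size, for the 5 members with the highest mean CPM and for their partner chains, and for Col15a1, chosen after its values were seen (as were Pcolce2, Tll1 and Mmp8). Other genes named with their statistics are Arl4c and the 2 called genes with the smallest p of each collagen pathway list; marker genes come from the marker lists, of which the result of 1 is not reported here. Members and lists were chosen with earlier results of these data known. Alternatives covered the pseudocount, the filter, scaling, limma's settings, the count tests and leaving out each library.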

Additional observations from a re-analysis of the deposited data

How the results depend on the processing

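Counts of collagen chain genes called lower ran from 17 to 20 over 17 alternatives, and 2 genes were called higher in each. The 17 lower calls came with a minimum mean of 5 CPM, which leaves fewer genes to test. Among the alternatives, the TMM scaling of edgeR gave the same 5445 calls over all genes as the main fit. It is therefore no separate check. Of the 21 called members, 19 kept their call in every alternative; the exceptions were Col1a1 after quantile normalization and Col6a5 without shControl 2, both given above. Col11a2 was called lower in 5 alternatives: a pseudocount of 5 CPM (limma adjusted p = 0.0489), median-of-ratios scaling (0.0483), limma with array weights (0.00412), without shArl4c 2 (0.0155) and without shArl4c 3 (0.0205). The log2 fold change of Col6a4, which was not called, changed sign to 0.0107 with array weights, to 0.0406 without shArl4c 3 and to 0.00623 without shControl 3, within a range of -0.25 to 0.0406 with each library left out in turn. The log2 fold change of Col20a1, also not called, changed sign to -0.0596 with array weights, to -0.0858 without shArl4c 3 and to -0.0644 without shControl 3, within a range of -0.0858 to 0.15. The cause of these changes was not tested. Over all genes, calls ran from 4108 in DESeq2 to 6885 with array weights, and no scaling moved the median log2 fold change of all genes beyond 0.0257. With one library left out, the ratio of summed collagen CPM ran from 0.520 to 0.531.

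No paired analysis was possible because the table's columns carry the numbers 1 to 3 for shControl and 2 to 4 for shArl4c, which cannot be tied to the labelled replicates; the planned replicate block was therefore not run. Members with a mean under 1 CPM, which had 8 to 78 reads in all, were left out of the main test. Their groups overlapped, which does not show that they were unchanged.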
